A study of Homo sapiens with 4 samples.

Results

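The immediate early genes FOS, JUN, JUNB, EGR1, NR4A1 and DUSP2 were followed after knockdown of MYC in OCI-Ly10, an established human line of activated B-cell-like diffuse large B-cell lymphoma. Every array feature whose platform symbol was one of these 6 genes was taken, which gave 18 of the 15154 features. JUN had 5 features, JUNB 4, EGR1 and FOS 3 each, DUSP2 2 and NR4A1 1. Values were complete over the 4 arrays for 11 of the 18, partly missing for 5 and missing throughout for 2. Both empty features belonged to FOS. In all, 54 of 72 possible values were present.

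The cells had been electroporated with 4 uM of a SMARTpool siRNA against MYC and harvested after 6, 8 or 24 h. Their RNA, labelled with Cy5, was hybridised together with Cy3-labelled RNA of control cells harvested at the same time. On 2 arrays, at 24 h and 8 h (the control-siRNA arrays), the control was a nonspecific siRNA against Renilla luciferase, also at 4 uM. On the other 2 arrays, at 24 h and 6 h (the no-siRNA arrays), the control cells were electroporated in Solution T with no siRNA. Each combination of control and time had 1 array, no array had the dyes swapped, and the line stands for 1 tumour. A value is the deposited ratio of the channels, taken as log2 of MYC siRNA over control, and a negative value then stands for less transcript after MYC siRNA. This direction is likely and not stated: it rests on the dyes in the labels and on the sign of MYC itself, and if it ran the other way every sign given here would turn. Ratios give no transcript level, so whether a gene or a cell marker was expressed at all cannot be read from them.

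Immediate early genes are switched on within minutes of a stimulus without new protein synthesis, mainly through kinase cascades that act on factors already bound at their promoters. JUN, JUNB and FOS encode subunits of AP-1, a dimeric leucine-zipper transcription factor. EGR1 encodes a zinc-finger factor, and NR4A1 encodes the orphan nuclear receptor Nur77, which antigen-receptor signals induce in lymphocytes. DUSP2 encodes a nuclear phosphatase of MAP kinases that is found mainly in blood cells. MYC is itself a classical early response gene.

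The promoter windows of JUN and NR4A1, the members that passed the test over arrays, are shown with those of FOS and EGR1, whose serum and growth factor responses are textbook examples. The sequences are from RefSeq on GRCh38.p14 and run 5′ to 3′ from 250 bases before to 50 bases after 1 annotated start per gene. Capitals mark CArG boxes, the sites of serum response factor, and the half-site of the cAMP response element, TGACG, on either strand. The windows are chr1:58783998-58784297 (minus strand) for JUN, chr12:52022582-52022881 (plus strand) for NR4A1, chr14:75278578-75278877 (plus strand) for FOS and chr5:138465229-138465528 (plus strand) for EGR1.
JUN: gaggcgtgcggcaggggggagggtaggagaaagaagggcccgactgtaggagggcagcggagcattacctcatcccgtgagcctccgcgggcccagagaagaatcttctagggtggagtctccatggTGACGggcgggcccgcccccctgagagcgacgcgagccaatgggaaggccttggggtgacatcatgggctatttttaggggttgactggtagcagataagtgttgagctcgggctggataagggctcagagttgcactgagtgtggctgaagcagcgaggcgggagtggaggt
NR4A1: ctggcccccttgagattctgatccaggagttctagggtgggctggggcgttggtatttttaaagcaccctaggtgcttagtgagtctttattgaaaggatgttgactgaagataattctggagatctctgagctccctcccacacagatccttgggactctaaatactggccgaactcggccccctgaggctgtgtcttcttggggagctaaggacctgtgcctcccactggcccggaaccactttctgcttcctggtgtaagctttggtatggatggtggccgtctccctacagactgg
FOS: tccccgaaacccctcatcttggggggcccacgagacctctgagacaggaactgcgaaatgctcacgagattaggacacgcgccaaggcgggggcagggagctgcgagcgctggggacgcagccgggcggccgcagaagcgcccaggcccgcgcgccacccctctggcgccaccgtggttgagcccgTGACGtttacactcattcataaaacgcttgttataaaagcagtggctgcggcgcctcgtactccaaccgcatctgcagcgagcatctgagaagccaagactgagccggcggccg
EGR1: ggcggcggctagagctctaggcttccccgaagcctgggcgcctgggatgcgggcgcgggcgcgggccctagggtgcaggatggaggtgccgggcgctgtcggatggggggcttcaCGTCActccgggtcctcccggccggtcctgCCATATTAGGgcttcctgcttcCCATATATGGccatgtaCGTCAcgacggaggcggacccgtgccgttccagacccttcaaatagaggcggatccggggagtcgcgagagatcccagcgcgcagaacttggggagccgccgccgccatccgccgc

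All 6 members had a window in the table. A CArG box stood in that of EGR1 alone, at 2 places that begin 105 and 83 bases before the start. Among all 27305 windows of the same length, 1.285% held one. The half-site TGACG was found in the windows of JUN, FOS, JUNB and EGR1, 1 match in each of the first 3 and 2 in EGR1, and in 25.0% of all windows. The windows of NR4A1 and DUSP2 held no TGACG. The E-box CACGTG, a sequence that MYC dimers can bind, occurred in the window of DUSP2 alone, 113 bases before the start, and in 7.43% of all windows. The AP-1 site TGANTCA, found in 7.76% of all windows, and the full element TGACGTCA, found in 1.98% and containing TGACG, had no match in any member's window. All motifs were searched on both strands. Only exact matches to a pattern were counted, so a variant such as TGACATCA in the JUN window was not. A match describes letters in the window and nothing about binding. Bases outside the windows and other starts of a gene were not searched, so a window without a match does not show that the gene lacks the site.

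NR4A1 fell and JUN rose with MYC siRNA, and the other 4 members did not pass the test of the mean over arrays. NR4A1 averaged -0.65 ± 0.41 on the log2 scale (SD, n = 4), or 63.6% of control, and JUN averaged 0.32 ± 0.13 (SD, n = 4), or 125% of control. Limma's adjusted p, taken over all 6798 rows of the table, was 0.0232 for NR4A1 and 0.0399 for JUN. Of all rows tested, 10.2% were called lower and 5.56% higher at an adjusted p under 0.05, and the members' counts of 1 lower and 1 higher are to be read against these shares. With time and control as terms of the limma model, the means stayed as they were and 5 of the 6 members passed, JUN and JUNB higher and NR4A1, FOS and DUSP2 lower, where 12.6% of all rows were called higher and 16.5% lower. That model leaves 1 residual degree of freedom. With no dye swap, a dye bias of single features and a response cannot be told apart. A single sign on all 4 arrays was seen for 5 of the 6 members, against 42.6% of all rows. RNA came from whole cultures, so fewer cells of a kind and less RNA per cell cannot be told apart.

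The targeted gene, MYC, averaged -0.89 ± 0.39 (SD, n = 4; limma adjusted p = 0.0146), and its sign helped to set the direction. Arrays held between 12028 and 12784 feature values each, with medians from -0.034 to 0.014. The 24 h no-siRNA array was the widest, with a standard deviation over features of 0.447, against 0.288 to 0.327 on the others. Of 7 measured B-cell markers, CD79A and CD74 rose (means 0.41 and 0.37, limma adjusted p = 0.039 and 0.0252) and 5 did not pass, with a list median of 0.10. Of all rows 5.56% were called higher and 10.2% lower. CD79A read 0.81 on the 24 h no-siRNA array, against 0.24 to 0.32 on the others. Of 7 T-cell markers none passed (median 0.21, CD2 0.02 to CD4 0.33), nor did either of the 2 monocyte markers (CD68 0.17, ITGAM 0.09). The list medians ran by array from 0.09 to 0.25 for T-cell markers, from -0.02 to 0.24 for B-cell markers and from -0.05 to 0.28 for monocyte markers. The part of these markers in the members' values was not tested.

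**Figure D1:**
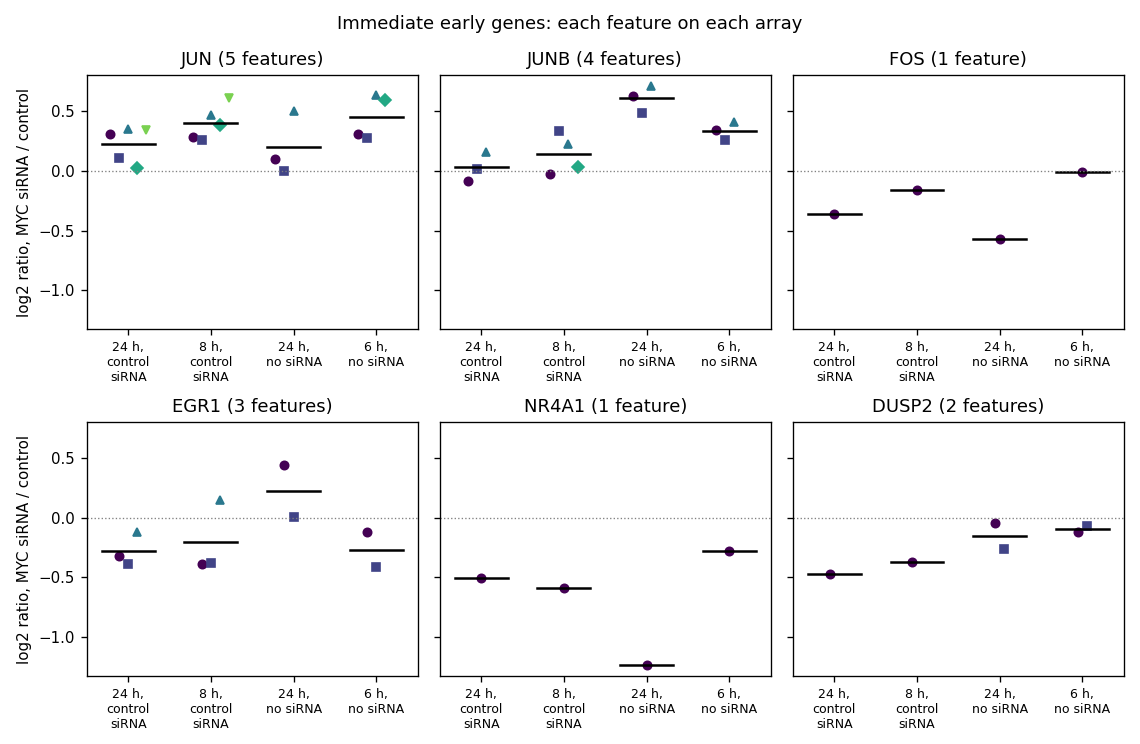
Log2 ratio of MYC siRNA over control (vertical axis) for each feature of the 6 genes on each of the 4 arrays (horizontal axis). Each symbol is 1 feature, the same in all 4 columns of a panel, and the bar is the mean of the features on that array. All JUN values but 1 lie above 0, and the NR4A1, FOS and DUSP2 values lie below 0.

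Among the AP-1 subunits, JUN was above 0 on each array. Averaged over its features, JUN stood at 0.23 (24 h) and 0.41 (8 h) on the control-siRNA arrays, and at 0.20 (24 h) and 0.46 (6 h) on the no-siRNA arrays. Both 24 h values were below both early values. Of its 17 single values 16 were above 0, and the exception was -0.001.

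The 5 features of JUN differed in size more than in sign. The feature with the highest mean of those complete on all arrays read 0.35 and 0.47 (24 h and 8 h) against control siRNA and 0.50 and 0.64 (24 h and 6 h) against no siRNA. The lowest one read 0.11 and 0.26 against control siRNA and -0.001 and 0.28 against no siRNA, in the same order of times. The third complete feature read 0.31 and 0.29 against control siRNA and 0.10 and 0.31 against no siRNA.

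Another JUN feature read 0.03 (24 h) and 0.39 (8 h) on the control-siRNA arrays and 0.60 (6 h) on a no-siRNA array, and the last had only 0.34 (24 h) and 0.61 (8 h) on the control-siRNA arrays. On a single array the features of JUN spread with an SD of 0.15 to 0.27, which is wider than the SD of 0.13 of their mean over arrays. Tested as single features, 1 of the 3 complete ones passed (mean 0.49, limma adjusted p = 0.0129) and the others did not (0.25 with adjusted p = 0.0844, and 0.16 with adjusted p = 0.248). Over all 10161 complete features, 7.09% were called higher and 12.3% lower.

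The call for JUN was lost whichever array was left out, but these fits called fewer rows of any kind. Their calls over all rows ran from 0 to 441, against 1073 with all 4 arrays. Leaving out the 8 h array gave a mean of 0.30 (limma adjusted p = 0.113), and leaving out the 24 h control-siRNA array 0.35 (adjusted p = 0.0942). The mean was 0.28 when the 6 h array was left out (adjusted p = 0.116) and 0.36 when the 24 h no-siRNA array was (adjusted p = 0.0656).

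JUNB, a partner in AP-1 that often opposes JUN in growth control, averaged 0.28 ± 0.25 (SD, n = 4; 95% confidence interval 0.04 to 0.52) and did not pass (limma adjusted p = 0.0998), but passed with time and control as terms (adjusted p = 0.0317). Without the 24 h no-siRNA array the mean was 0.17 (adjusted p = 0.302). Such intervals are for 1 gene at a time, while the adjusted p allows for all rows tested. It stood at 0.03 (24 h) and 0.14 (8 h) on the control-siRNA arrays, and at 0.61 (24 h) and 0.34 (6 h) on the no-siRNA arrays. The arrays against control siRNA were both lower than those against no siRNA.

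That order held in 2 of the 3 complete JUNB features, while the other read 0.34 at 8 h, above its 0.26 at 6 h. The 3 features ranged from -0.08 to 0.16 at 24 h and from -0.02 to 0.34 at 8 h against control siRNA, and from 0.49 to 0.71 at 24 h and from 0.26 to 0.41 at 6 h against no siRNA. The remaining feature had 1 value, 0.04 at 8 h. The feature with the highest mean passed when features were tested one by one (0.38, limma adjusted p = 0.0404), while the other 2, with means of 0.28 and 0.22, did not (adjusted p = 0.0869 and 0.223).

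FOS, the dimer partner of the JUN proteins, rested on 1 feature and averaged -0.27 ± 0.25 (SD, n = 4; 95% confidence interval -0.51 to -0.03), without passing (limma adjusted p = 0.102), but passed with time and control as terms (adjusted p = 0.0357). The values were -0.36 (24 h) and -0.16 (8 h) on the control-siRNA arrays, and -0.57 (24 h) and -0.01 (6 h) on the no-siRNA arrays. All 4 lay below 0, and both 24 h values were below both early ones. Without the 24 h no-siRNA array the mean was -0.17 (limma adjusted p = 0.307). On each of the 4 arrays FOS was below JUN and JUNB. The difference between these genes was not tested.

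NR4A1 also rested on 1 feature. It read -0.51 (24 h) and -0.59 (8 h) on the control-siRNA arrays, and -1.23 (24 h) and -0.28 (6 h) on the no-siRNA arrays. Counted from the lowest row, these values stood at percentiles 4.34, 1.81, 0.574 and 14.0 of their arrays, and the mean at percentile 0.897 of all rows. The lowest value came from the widest array, and without it the mean was -0.46 and passed (limma adjusted p = 0.0481). Without the 6 h array (-0.78, adjusted p = 0.0546), the 8 h array (-0.67, adjusted p = 0.0543) or the 24 h control-siRNA array (-0.70, adjusted p = 0.0666) the gene did not pass. Over all rows 0, 441 and 4 were called in these fits, in the same order. With arrays centred and scaled to 1 width the mean was -0.61 (adjusted p = 0.00907).

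EGR1 averaged -0.13 ± 0.24 (SD, n = 4; 95% confidence interval -0.37 to 0.10; limma adjusted p = 0.391). It stood at -0.28 (24 h) and -0.20 (8 h) on the control-siRNA arrays, and at 0.22 (24 h) and -0.27 (6 h) on the no-siRNA arrays. The 24 h no-siRNA array was the exception among values that otherwise lay close together, and without it the mean was -0.25 (limma adjusted p = 0.126). The mean was -0.08 without the 24 h control-siRNA array (adjusted p = 0.697) and -0.09 without the 6 h array (adjusted p = 0.663).

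The features of EGR1 did not all share a sign. One complete feature read -0.39 and -0.38 (24 h and 8 h) against control siRNA and 0.004 and -0.41 (24 h and 6 h) against no siRNA, with a mean of -0.29 (limma adjusted p = 0.0723). The other read -0.32 and -0.39 against control siRNA and 0.44 and -0.12 against no siRNA, with a mean of -0.10 (adjusted p = 0.629). The third had values only against control siRNA, -0.12 at 24 h and 0.15 at 8 h. In all, 7 of the 10 values were below 0 and 3 above. Averaged over its complete features alone, EGR1 stood at -0.19 (limma adjusted p = 0.235).

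DUSP2 averaged -0.27 ± 0.18 (SD, n = 4; 95% confidence interval -0.48 to -0.06) and did not pass (limma adjusted p = 0.0785), but passed with time and control as terms (adjusted p = 0.0329). It stood at -0.47 (24 h) and -0.37 (8 h) on the control-siRNA arrays, and at -0.15 (24 h) and -0.09 (6 h) on the no-siRNA arrays. All 6 values of its 2 features were below 0. One feature, complete, gave the values against control siRNA and read -0.05 (24 h) and -0.12 (6 h) on the no-siRNA arrays. The other read -0.26 (24 h) and -0.07 (6 h) on the no-siRNA arrays and had no value on the other arrays.

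With 4 arrays, an exact two-sided sign-flip permutation test of 1 gene cannot go below a p of 0.125. That p was reached by FOS, JUN, JUNB, NR4A1 and DUSP2, and EGR1 had 0.375. An unadjusted p under 0.05 in limma was found for 5 of the 6 members, all but EGR1, and for 35.4% of all rows.

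**Figure D2:**
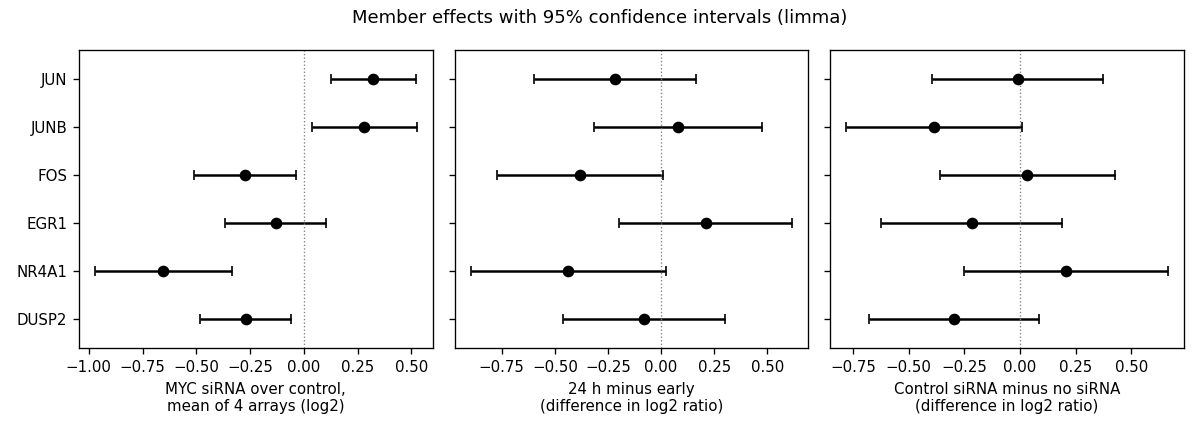
Effects for the 6 genes on the log2 scale with 95% confidence intervals from limma, as points and bars. From left to right the panels show the mean of MYC siRNA over control on 4 arrays, the difference of 24 h minus early arrays and the difference of arrays against control siRNA minus arrays against no siRNA. In the left panel only the EGR1 interval includes 0, while in the other panels the interval of each gene includes 0.

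Between 24 h and the early arrays (6 h and 8 h), 0 of the 6 members passed the test of the difference (limma with time and control as terms). Of all rows 0.118% passed, which is 8 rows, and 687 had an unadjusted p under 0.05. NR4A1 averaged -0.87 at 24 h and -0.43 early (difference -0.44, 95% confidence interval -0.90 to 0.02, adjusted p = 0.523). With arrays scaled to 1 width its difference was -0.23, against -0.31 for FOS and -0.31 for JUN, so which member had the widest gap depends on the scaling. FOS averaged -0.46 at 24 h and -0.08 early (difference -0.38, interval -0.77 to 0.01, adjusted p = 0.511). JUN averaged 0.21 at 24 h and 0.43 early (difference -0.22, interval -0.60 to 0.17, adjusted p = 0.765). The time differences of FOS and JUN were both negative, on opposite sides of 0. They were the 2 members whose 24 h arrays did not overlap the early ones, a pattern found in 36.5% of all rows. For JUN this held for the average of its features and not for each feature. A complete JUN feature read 0.31 (24 h) and 0.29 (8 h) against control siRNA. Another read 0.50 at 24 h against no siRNA and 0.47 at 8 h against control siRNA, while the remaining complete feature kept the order. Over complete features alone (added after seeing the data) the JUN difference was -0.15 (limma adjusted p = 0.859).

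The other members did not pass with time either. EGR1 averaged -0.03 at 24 h and -0.24 early (difference 0.21, interval -0.20 to 0.62), JUNB 0.32 at 24 h and 0.24 early (difference 0.08, interval -0.31 to 0.47) and DUSP2 -0.31 at 24 h and -0.23 early (difference -0.08, interval -0.46 to 0.30). Their adjusted p in limma lay between 0.791 and 0.937. The sign for JUNB turned when arrays were scaled to 1 width (-0.05). MYC itself averaged -0.69 at 24 h and -1.10 early (difference 0.41, limma adjusted p = 0.467, and 0.74 with scaled arrays, adjusted p = 0.614).

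By kind of control, 0 of the 6 members passed either, against 0.0883% of all rows (6 rows, with 685 at an unadjusted p under 0.05). JUNB averaged 0.09 against control siRNA and 0.47 against no siRNA (difference -0.39, 95% confidence interval -0.78 to 0.01, limma adjusted p = 0.508). DUSP2 averaged -0.42 against control siRNA and -0.12 against no siRNA (difference -0.30, interval -0.68 to 0.09, adjusted p = 0.66). The arrays of the 2 controls did not overlap for these 2 members, as for 34.6% of all rows. EGR1 averaged -0.24 against control siRNA and -0.02 against no siRNA (difference -0.22, interval -0.62 to 0.19, adjusted p = 0.81). An EGR1 feature had values only against control siRNA, so these means average unlike features. Over complete features alone (added after seeing the data) the EGR1 difference was -0.34 (limma adjusted p = 0.579), and its arrays of the 2 controls did not overlap either. NR4A1 averaged -0.55 against control siRNA and -0.76 against no siRNA (difference 0.21, interval -0.25 to 0.66, adjusted p = 0.863, and -0.0080 with scaled arrays). JUN stood at 0.32 against control siRNA and 0.33 against no siRNA, and FOS at -0.26 against control siRNA and -0.29 against no siRNA. MYC itself averaged -0.64 against control siRNA and -1.145 against no siRNA (difference 0.50, interval 0.11 to 0.89, limma adjusted p = 0.313). It read -0.35 on the 24 h control-siRNA array. The part of this difference in MYC in the members' differences was not tested. The experiment identifiers of the 2 kinds of control fall into separate ranges, so control and batch cannot be told apart.

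The wider AP-1 family had 12 of 19 listed genes measured. JUN rose, 0 fell and 11 did not pass, where 5.56% of all rows were called higher and 10.2% lower, with a median of the mean log2 ratios of -0.06 against -0.003 over all rows. The lowest of the 12 was FOS and the highest were JUN and JUNB. In the EGR and NR4A families with the EGR corepressors NAB1 and NAB2, NR4A1 fell, 0 rose and 6 of 7 did not pass (median -0.12). Of 5 measured dual-specificity phosphatases none passed (median 0.04). DUSP2 was the lowest of them, and DUSP6, a cytoplasmic phosphatase of ERK, was the highest at 0.29 ± 0.33 (SD, n = 4; limma adjusted p = 0.134).

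Among 29 measured genes of the remaining immediate early list 4 rose, 3 fell and 22 did not pass (median 0.12), against 5.56% of all rows called higher and 10.2% lower. The 3 of 29 that fell are near the share of all rows. MYC was one of the 3 that fell. The others were ZFP36L2, an RNA-binding protein that promotes decay of AU-rich transcripts, at -0.38 ± 0.21 (limma adjusted p = 0.0371), and the matricellular protein gene CCN2 at -0.36 ± 0.08 (adjusted p = 0.0271; SD, n = 4 each). ZFP36, a paralog of ZFP36L2 with the same kind of function, rose by 0.32 (SD 0.07, n = 4; adjusted p = 0.0335). The polo-like kinase gene PLK2 rose by 0.50 (SD 0.27), the zinc-finger factor gene KLF4 by 0.43 (SD 0.15) and the kinase gene SGK1 by 0.35 (SD 0.20), with limma adjusted p from 0.0227 to 0.0425.

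Upstream of these genes, in the MAP kinase cascade and among the SRF, TCF and CREB factors, 2 of 18 measured genes rose, 0 fell and 16 did not pass (median 0.02), against the same shares of 5.56% higher and 10.2% lower. MRTFA, a coactivator of serum response factor, averaged 0.50 ± 0.23 (SD, n = 4; limma adjusted p = 0.021). It read 0.32 (24 h) and 0.30 (8 h) on the control-siRNA arrays, and 0.76 (24 h) and 0.62 (6 h) on the no-siRNA arrays. MAP2K6, a kinase that activates p38, averaged 0.45 ± 0.18 (SD, n = 4; adjusted p = 0.0227). By time and by kind of control, 0 genes of these 5 lists passed in limma. Apart from MYC, the 10 genes of these and the B-cell lists that passed and are not among the 6 members each lost the call in at least 3 of the 4 fits with 1 array left out. These losses cannot show that the 10 genes are weaker than others, because such fits called few rows of any kind. Of all 6798 rows, 0 were called once the 6 h array was dropped and 4 once the 24 h control-siRNA array was. Dropping the 8 h array left 441 calls, and dropping the 24 h no-siRNA array 234.

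**Figure D3:**
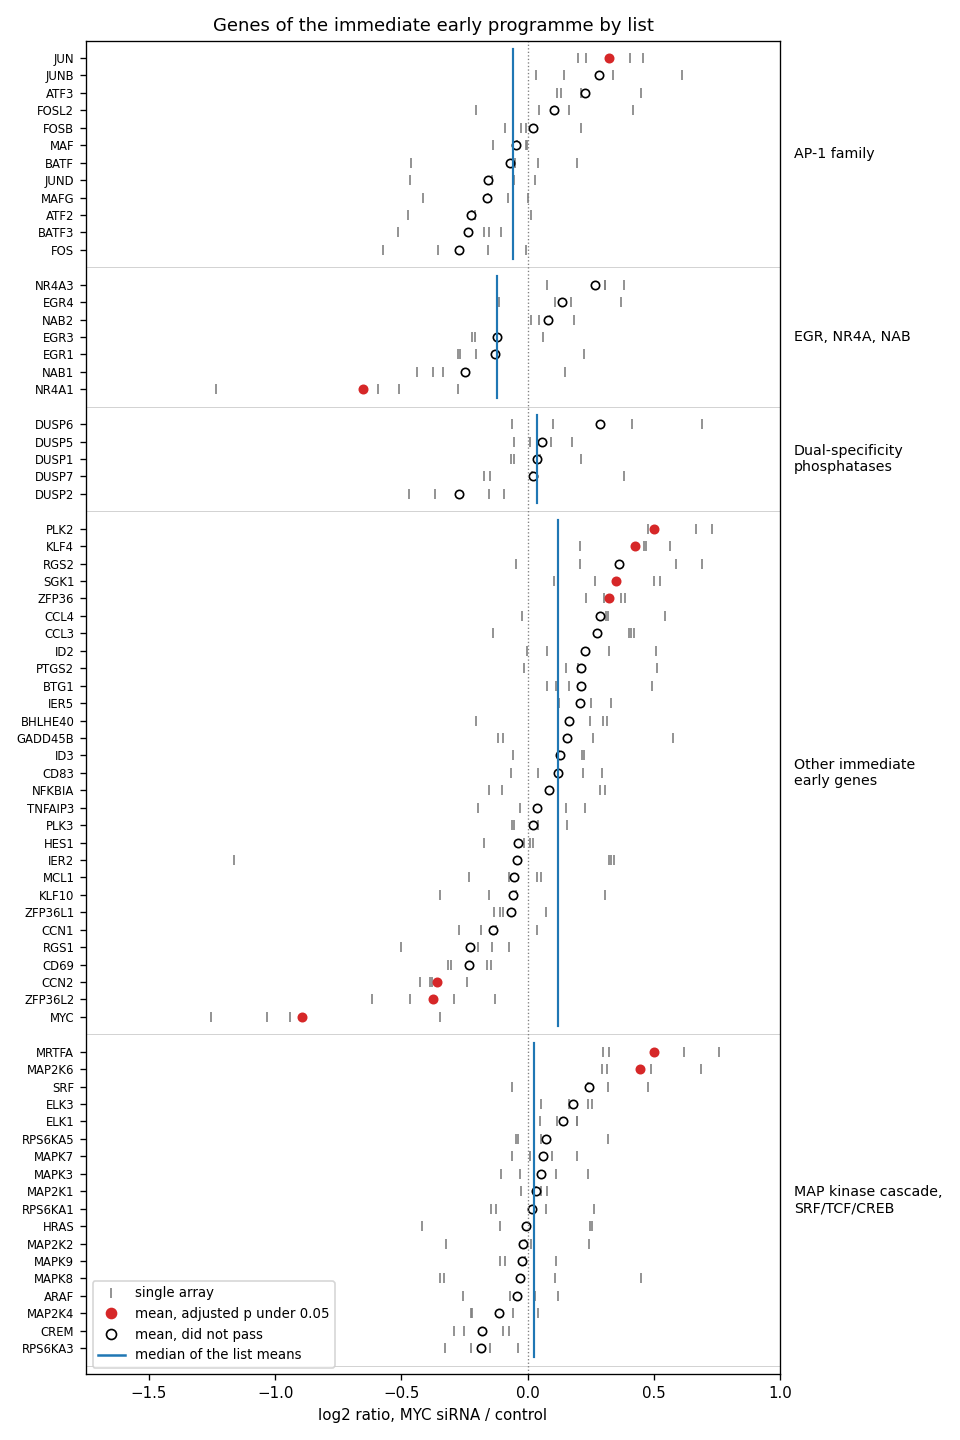
Log2 ratio of MYC siRNA over control (horizontal axis) for every measured gene of 5 lists (vertical axis). Grey ticks are the 4 arrays, circles their mean (red where the adjusted p in limma was under 0.05) and blue lines the median of each list. JUN and FOS lie at opposite ends of the AP-1 family, and NR4A1 is the lowest gene of its list.

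The named genes closest to each member were found by the root mean square difference of log2 ratios over the 4 arrays, among 3953 named genes. For NR4A1 the closest were the cytokine gene IL2 (0.12) and TFAM, the packaging factor of mitochondrial DNA (0.123), and 0 genes came within 0.1. For FOS they were PMAIP1, a BH3-only gene of apoptosis (0.0308), and PDXDC1 (0.0422), with 32 genes within 0.1. JUN was closest to FAHD2A (0.063) and the myosin gene MYO1E (0.067), with 15 genes within 0.1, and JUNB to DELE1 (0.0352) and the topoisomerase gene TOP3A (0.053), with 24. EGR1 was closest to CTSG (0.0571) and TRAT1 (0.0679), with 13 genes within 0.1. DUSP2 was closest to MAPKAPK3, a kinase downstream of p38 (0.057), and KLHL22 (0.0699), with 19. The 4 arrays are few points for such a measure, and these are descriptions of these arrays.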

How the data were processed

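Two-channel arrays of OCI-Ly10 cells were analysed, 4 in all. The values are the log2 ratios of the value table deposited by the authors, 1 per feature and array. How the authors corrected background and normalized, and the log base and direction, is not given in the sources used here. Symbols came from the platform annotation and were updated by Entrez ID through RefSeq names (10124 features matched). Features of 1 gene were averaged per array, and rows needed a value on all 4 arrays (6798 rows, 3954 of them named genes). The mean over arrays was tested against 0 with limma 3.58.1 in R 4.3.3 (lmFit, eBayes). Time and control kind were tested as terms of 1 model with 1 residual degree of freedom and 17.5 prior ones, so those p-values rest mostly on the spread pooled over genes. The Benjamini-Hochberg adjustment ran over all rows, and the threshold was 0.05. Precision is limited by the number of arrays (median standard error 0.0951). Nothing in the labels says which cultures were separate, and the p-values therefore measure spread among 4 arrays that may in part be technical.

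The members and gene lists were chosen with earlier results of these data known. Named genes were the 6 members, MYC, list genes past the threshold in any comparison (otherwise the highest and lowest of the list) and the 2 nearest genes of each member. Alternatives covered centring, scaling, the handling of features, missing values, model terms and left-out arrays. The code was tested on simulated data. Replicate numbers follow accession order and pair nothing.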

Additional observations from a re-analysis of the deposited data

Results flagged for a closer look

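EGR1 on the 24 h no-siRNA array stood apart from its other 3 arrays: the gap to the nearest of them was 0.855 of the whole range, above Dixon's critical value for 4 samples. The value was 0.22, against -0.28, -0.20 and -0.27 on the others. These means average unlike features, because an EGR1 feature had values only on the control-siRNA arrays. Over complete features alone EGR1 read 0.22 on the 24 h no-siRNA array and -0.27 on the 6 h array. The control-siRNA arrays then read -0.35 (24 h) and -0.38 (8 h). Whether the flag holds without the incomplete feature was not tested. CD79A stood apart on the 24 h no-siRNA array, at 0.81 against 0.24 to 0.32, also with a gap of 0.855 of its range. That array had the widest spread over all features (0.447). These were 2 of 17 genes checked, and chance flags about 1 in 20 such groups. IER2, of the remaining immediate early list, was not among the genes checked. It read -1.16 on the 24 h no-siRNA array, against 0.32 to 0.34 on the others.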

How the results depend on the processing

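The members kept the sign of their MYC siRNA means under all alternatives run, including centred or scaled arrays. NR4A1 and JUN passed with centred arrays, scaled arrays, complete features, medians of features, values on at least 3 arrays, time and control as terms, and robust eBayes. They lost the call as given beside them. With time and control as terms of the model FOS (adjusted p = 0.0357), JUNB (0.0317) and DUSP2 (0.0329) also passed in limma, where 1124 rows were called lower and 856 higher, against 695 and 378 without these terms. With each feature as a row the counts were 1251 and 720 over a longer table. With 1 array left out they ran from 0 to 310 lower and from 0 to 131 higher. Without the 24 h control-siRNA array 4 rows were lower and 0 higher, with 1895 rows at an unadjusted p under 0.05. Without the 6 h array both counts were 0, 2179 rows had an unadjusted p under 0.05 and the smallest adjusted p in limma was 0.053. For 24 h minus early, 6 rows were lower and 2 higher. These were 44 and 17 with centred arrays, 63 and 11 with single features, 20 and 6 with complete features (added after seeing the data), and 0 and 0 with scaled arrays or with time alone in the limma model. For control siRNA minus no siRNA, 0 were lower and 6 higher. These were 31 and 56 with centred arrays, 16 and 41 with single features, 6 and 31 with complete features (added after seeing the data), and 0 and 0 with scaled arrays or control kind alone. The causes were not tested. Signs turned for 24 h minus early in JUNB with scaled arrays (-0.0459) and in 1 JUNB feature (-0.0465), and for control siRNA minus no siRNA with scaled arrays in FOS (-0.10) and NR4A1 (-0.0080) and in 2 JUN features (0.0965 and 0.0465). No member passed in these 2 comparisons under any alternative run. Signal over background was not used here, so dim features could not be told from bright ones. No paired analysis was possible by replicate number because those numbers come from accession order. The tests of time and of control kind each kept the other factor as a term, with 6 h and 8 h taken as the same time class.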
